A study of Mus musculus with 29 samples.

Results

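The respiratory chain and the ATP synthase of the mitochondrial inner membrane were examined through the nuclear genes that encode their subunits. Members were all entries whose symbol begins with Nduf followed by a, b, c, s or v and a number (complex I), Sdha to Sdhd (complex II), Uqcr (complex III), Cox4 to Cox8 (complex IV) or Atp5 (complex V, the ATP synthase), which gave 84 of the 24732 entries in the tables mapped to mouse genome build mm9. They comprised 37 entries of complex I, 4 of complex II, 8 of complex III, 18 of complex IV and 17 of complex V. Atp5s, Atp5sl and Cox7a2l also fit the rule by name, although Atp5s and Cox7a2l are not structural subunits of the complex they are named after, and Atp5sl is a complex I assembly factor. The subunits encoded by mitochondrial DNA were outside the rule, as were some nuclear-encoded ones with other names, such as Cyc1, Ndufab1 and Usmg5.

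The mRNA levels came from pro-B cells, the bone marrow stage at which Pax5 first commits cells to the B lineage, sorted directly from C57BL/6 mice. The groups were 3 wild-type libraries, 2 libraries of Pax5(-/-) cells, in which both Pax5 alleles are inactivated from the germ line onward, and 3 libraries of Pax5(+/+) Meox2-cre cells, which were pooled before sequencing and mapped to the later build mm10. Both kinds of cell were sorted as B220+ Kit+, but the other surface markers of the gate differed between wild-type cells and Pax5-/- progenitors, so the effects of the gate and of the genotype cannot be told apart. Control Pax5(+/+) pro-B cells of the tumour study came from mice aged 3 weeks, and no age was found for the wild-type and Pax5-/- mice. The labels do not say whether each library came from a separate animal, so p-values measure only the spread between these libraries, which may be technical. The labels describe the Meox2-cre samples as Pax5(+/+), whereas the sample list of the study gives 1 inactivated Pax5 allele for them, and Meox2-cre acts in the early embryo and thus in all its tissues. Values are TPM, a transcript level per transcript length with the same sum in every library, so the read depth is unknown.

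Electrons from NADH enter the chain at complex I and electrons from succinate at complex II. Complex III passes them to cytochrome c and complex IV to oxygen, while complexes I, III and IV pump the protons that drive the ATP synthase. Each complex combines a few catalytic core subunits with many small accessory or supernumerary ones, and several complex IV and complex V subunits exist as isoforms from separate genes that differ between tissues. Their genes are classical targets of the transcription factors NRF1, GABP (an ETS factor) and YY1.

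Short promoter stretches are shown first because NRF1, ETS and YY1 letters are known sequence features of this gene family. RefSeq promoter windows of GRCm38.p6, from 250 bases before to 50 bases after each annotated start, were matched to 69 of the 84 members and searched on both strands for GCGCATGCGC (NRF1), CCGGAAGT (ETS) and AAGATGGC (YY1), none of which holds another. The NRF1 letters were in the windows of 5 members (7.25%, against 1.07% of all 27025 genes with a window and 2.46% of 9425 genes that passed the expression filter). The ETS letters were in 5 members (7.25%, against 4.31% of all and 9.6% of expressed genes). The YY1 letters were in 11 members (15.9%, against 3.19% of all and 5.56% of expressed genes). AAGATGGC holds an ATG, so a match after the start can also be the beginning of the open reading frame, and a match of either kind is a description of the letters only. The 5 NRF1 stretches follow, with the matched letters in capitals.
Atp5g2, chr15:102671070-102671099, minus strand, 42 bases before the start: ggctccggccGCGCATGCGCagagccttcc
Atp5k, chr5:108434430-108434459, minus strand, 50 bases before the start: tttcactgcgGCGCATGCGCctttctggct
Cox6a1, chr5:115349101-115349130, minus strand, 162 bases before the start: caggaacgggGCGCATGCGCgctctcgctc
Ndufa11, chr17:56717692-56717721, plus strand, 60 bases before the start: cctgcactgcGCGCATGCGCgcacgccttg
Uqcrc1, chr9:108936668-108936697, plus strand, 30 bases after the start: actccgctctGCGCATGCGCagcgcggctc
Of the members whose mRNA differed between genotypes, 1 held the ETS letters and 4 the YY1 letters, and their stretches are written in the same way. Atp5sl and Atp5j have more than 1 annotated start. The Atp5sl match also lies at position -53 from another start, and the Atp5j match is in the window of 1 start only.
Atp5h, ETS letters on the opposite strand, chr11:115419940-115419969, minus strand, 39 bases before the start: ccaaggagagaACTTCCGGcaactctcttc
Atp5j, YY1 letters, chr16:84835046-84835075, minus strand, 88 bases before the start: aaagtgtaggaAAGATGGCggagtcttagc
Atp5sl, YY1 letters, chr7:25619429-25619458, plus strand, 26 bases after the start: cgttacctggcAAGATGGCggcgcccagag
Ndufs4, YY1 letters, chr13:114388045-114388074, minus strand, 35 bases after the start: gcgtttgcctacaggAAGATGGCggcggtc
Ndufs6, YY1 letters, chr13:73328433-73328462, minus strand, 33 bases after the start: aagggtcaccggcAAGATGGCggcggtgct
Among the 5 members with NRF1 letters 2 were lower in Pax5-/- cells (Atp5k and Ndufa11) and none was higher, among the 5 with ETS letters 1 was lower, and among the 11 with YY1 letters 3 were lower and 1 was higher. Of all entries tested 21.5% were lower and 15.6% higher, and sets of 5 to 11 members are too small to read against these shares.

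The libraries fitted their labels. Pax5 itself was at 342 to 391 TPM in wild-type and at 39.1 and 43.0 TPM in Pax5-/- cells. Across all entries tested, libraries of 1 genotype correlated at r = 0.978 to 0.989 on the log2 scale and libraries of different genotypes at 0.895 to 0.918. Wild-type replicate 1 stood apart in Dntt (760 TPM, against 2133 and 1921 in the other two) and in the summed myeloid markers (45.9 TPM, against 252 and 192). The summed level of 7 myeloid markers was 45.9 to 252 TPM in wild-type, 55.4 and 83.7 TPM in Pax5-/- and 440 to 1217 TPM in Meox2-cre libraries. The 7 erythroid markers summed to 73.5 to 186, 8.0002 to 59.7 and 214 to 306 TPM, with the globin entries Hba-a2 and Hbb-b1 at 0 in every library. The T cell list was higher in Pax5-/- cells through Lck alone (54.8 to 72.2 against 196 and 198 TPM), with Cd3e, Cd3g, Cd3d and Trac below 2 TPM in all 5 libraries. The 3 plasma cell markers summed to 96.7 to 106 and 86.5 to 94.4 TPM. Of these, Sdc1 fell (23.8 to 30.1 against 7.61 and 6.28 TPM), while Xbp1 and Prdm1 overlapped. The 12 early B-lineage markers summed to 13007 to 15648 TPM in wild-type and to 4861 and 5177 TPM in Pax5-/- cells. Cd79a, Cd79b, Vpreb1, Igll1, Ebf1, Rag1 and Rag2 were lower without overlap. Il7r (81.7 to 141 against 154 and 158 TPM) and Ptprc (59.3 to 70.0 against 72.1 and 74.0 TPM) were higher, and Vpreb2, Dntt and Kit overlapped. The part of other cell types in the results below was not tested.

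The family was highly expressed and moved little as a whole. Together the members made up 3.76%, 3.32% and 3.46% of all TPM in the wild-type libraries and 3.20% and 3.26% in the Pax5-/- libraries, so the groups did not overlap, and the mean ratio of the sums was 0.919. Of 78 members that passed the expression filter (an average over 1 TPM in either genotype), 4 were higher and 15 lower in Pax5-/- cells at an adjusted p below 0.05 in limma, and 59 did not pass. That is 24.4% of the members, whereas 37.1% of all 12066 entries tested passed (15.6% higher and 21.5% lower), so members were called less often than entries at large, a difference that was not tested. The background was 40.1% among the 6851 entries above 20 TPM, where 77 of the 78 members lie. The median log2 change of the members was -0.12, and that of all entries tested was also -0.12. The interquartile range was -0.28 to 0.06 for the members, -0.47 to 0.28 for all entries and -0.40 to 0.22 for the entries above 20 TPM. The median coefficient of variation over the wild-type libraries was 9.29% for the members against 14.4% for all entries. It was not computed for entries of similar level. In such bulk samples fewer cells of a type and less RNA per cell cannot be told apart.

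The number of members called lower changed with the scaling of the libraries. Rescaling each library by median ratios took the median of all entries to -0.00 and that of the members to -0.01, and left 3 members higher and 3 lower, whereas quantile normalization gave 9 higher and 9 lower. Of all entries 20% were higher and 18.6% lower with median ratios, and 20.4% higher and 19.6% lower with quantile normalization. All 19 called members kept their sign under both, and Ndufa1, Ndufa5 and Cox7a1 were the lower ones that stayed past the threshold with median ratios. The calls also rest on both Pax5-/- libraries, since leaving out replicate 1 or replicate 2 left 2 higher and 1 lower. Values below are log2 differences without that rescaling, so a value near -0.12 sits at the middle of all genes.

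**Figure D1:**
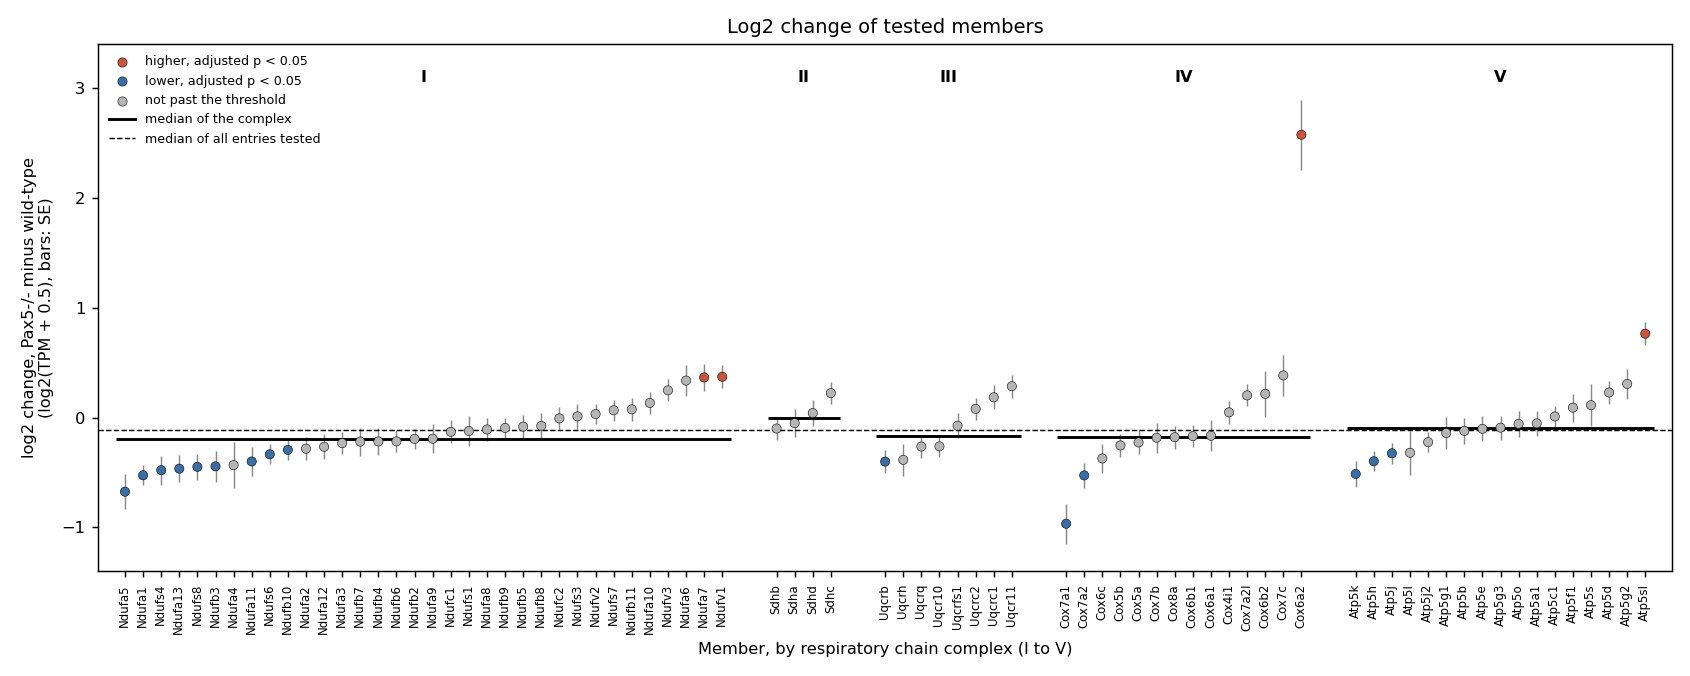
Log2 change (Pax5-/- minus wild-type, on log2(TPM + 0.5)) of 77 of the 78 tested members, ordered within complexes I to V, with bars for the standard error. Red and blue points passed an adjusted p of 0.05 in limma, the short lines are the medians of the complexes and the dashed line is the median of all 12066 entries, and all points but Cox6a2, Cox7a1 and Atp5sl lie within 0.7 of zero.

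At the thresholds of the study, which ask for more than 3-fold, an adjusted p below 0.05 and an average over 5 TPM in either genotype, Cox6a2 was the only member called higher and no member was called lower. Among all entries 2.71% were called higher and 3.15% lower by this rule. At an unadjusted p below 0.05 in limma, 30 of the 78 members passed. The share of all entries at that level was not computed, but 37.1% of them passed even the stricter adjusted threshold. By the groups alone, 12 members (15.4%) had both Pax5-/- libraries above all wild-type libraries, against 26.1% of all entries, and 32 members (41.0%) had both below, against 37.4% of all entries.

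Complex I, the NADH dehydrogenase, had 9 members lower and 2 higher of 35 tested (31.4%, against 37.1% of all entries), and a median log2 change of -0.19 (-0.08 with median ratios). The 7 core subunits, which carry the flavin and the iron-sulfur clusters or build the quinone site, had a median of 0.03, and the 28 tested accessory subunits a median of -0.22. With median ratios these medians were 0.15 and -0.10, and the difference between core and accessory subunits was not tested. Among the accessory subunits 8 were lower and 1 higher.

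Ndufv1, the flavin-binding core subunit that oxidises NADH, rose. It was at 247, 211 and 243 TPM in wild-type and at 299 and 304 TPM in Pax5-/- cells, without overlap. Its log2 change was 0.37 ± 0.10 (SE), with an adjusted p of 0.0271.

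Ndufs8, a core subunit with iron-sulfur clusters, fell. It was at 509, 453 and 405 TPM in wild-type and at 330 and 335 TPM in Pax5-/- cells, without overlap. The log2 change was -0.45 ± 0.12 (SE), with an adjusted p of 0.02002 that became 0.170 with median ratios.

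The other 5 core subunits did not pass the test, and their changes were small. Ndufv2 was at 157 to 164 TPM in wild-type and at 163 and 165 TPM in Pax5-/- cells, a log2 change of 0.03 ± 0.09. Further values were 0.01 ± 0.11 for Ndufs3, 0.07 ± 0.09 for Ndufs7 and -0.12 ± 0.14 for Ndufs1, the largest subunit of the complex. Ndufs1 had a lower level than the other core subunits, at 39.5 to 50.8 TPM in wild-type against 130 to 509 TPM for the others.

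Among the accessory subunits Ndufa1 and Ndufa5 had the smallest adjusted p of those of complex I that fell. Ndufa1, a small membrane-arm subunit encoded on the X chromosome (chrX:34727583-34731158 in mm9), was at 362, 327 and 347 TPM in wild-type and at 243 and 236 TPM in Pax5-/- cells. Both Pax5-/- values lay well below the wild-type ones, for a log2 change of -0.53 ± 0.09 (adjusted p = 0.0043). Ndufa5, a subunit of the peripheral arm, was at 166, 148 and 214 TPM against 112 and 106 TPM. Its wild-type values were spread more widely but did not reach the Pax5-/- values, and the log2 change was -0.68 ± 0.16 (adjusted p = 0.0132).

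The other 6 accessory subunits that fell were Ndufa11, Ndufa13, Ndufb3, Ndufb10, Ndufs4 and Ndufs6, with log2 changes of -0.29 to -0.48 and adjusted p of 0.0216 to 0.0453. None of these 6 passed the threshold with median ratios. Ndufs4 and Ndufs6 belong to the NADH-oxidising module together with Ndufv1, which moved the other way. Ndufs4 was at 56.5, 46.1 and 56.96 TPM in wild-type and at 37.3 and 38.4 TPM in Pax5-/- cells, and Ndufs6 at 290, 279 and 268 against 216 and 226 TPM.

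Ndufa7 rose, from 209, 195 and 166 TPM to 238 and 250 TPM, a log2 change of 0.36 ± 0.12 (adjusted p = 0.0472). Its call was near the threshold and was lost in 7 of 14 alternative settings. Ndufb7 had the highest mean level of complex I, at 954, 906 and 740 TPM in wild-type and 754 and 727 TPM in Pax5-/- cells, with no passing difference (log2 change -0.22 ± 0.13). Ndufa4, which was first assigned to complex I and is now counted as a complex IV subunit, varied among the wild-type libraries, at 527, 414 and 721 TPM against 383 and 418 TPM (log2 change -0.43 ± 0.21, not passing). Ndufa4l2, its counterpart induced by low oxygen, was at 0.127 to 0.132 TPM in wild-type and at 0.308 and 0 TPM in Pax5-/- cells.

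Complex II, the succinate dehydrogenase that is shared with the tricarboxylic acid cycle, had 0 of 4 members called by limma at the adjusted threshold, against 37.1% of all entries. Its median log2 change was -0.01 (0.11 with median ratios). Sdha, the flavoprotein, was at 236, 217 and 286 TPM in wild-type and at 240 and 233 TPM in Pax5-/- cells. Sdhb, the iron-sulfur subunit with the highest level, was at 445, 389 and 379 TPM against 374 and 379 TPM, so the lowest wild-type value was almost that of the Pax5-/- libraries. Sdhc and Sdhd anchor the enzyme in the membrane and bind the quinone. Sdhc was at 251, 240 and 274 TPM against 295 and 299 TPM, without overlap and with a log2 change of 0.22 ± 0.10 (adjusted p = 0.111), and Sdhd at 267, 212 and 238 against 247 and 242 TPM.

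Complex III, the cytochrome bc1 complex, had 1 lower member of 8 (12.5%, against 37.1% of all entries) and a median of -0.17 (-0.05 with median ratios). Uqcrb, a small subunit next to cytochrome b, fell from 66.0, 68.1 and 70.6 TPM to 52.7 and 50.4 TPM, a log2 change of -0.40 ± 0.10 (adjusted p = 0.0192, and 0.0559 with median ratios). The 3 named core subunits did not pass. Uqcrfs1, the Rieske iron-sulfur protein, was at 185 to 227 TPM in wild-type and at 189 and 192 TPM in Pax5-/- cells (log2 change -0.07 ± 0.11). Uqcrc1 and Uqcrc2, the core proteins on the matrix side, had log2 changes of 0.18 ± 0.11 and 0.08 ± 0.10. Uqcrq had the highest wild-type level, at 908, 771 and 776 TPM, and was at 680 and 679 TPM in Pax5-/- cells, where the groups did not overlap but the adjusted p was 0.0928. Uqcr11 had the highest Pax5-/- level, at 903 and 887 TPM against 811, 702 and 695 TPM in wild-type, with a log2 change of 0.29 ± 0.11 that did not pass either.

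Complex IV, the cytochrome c oxidase, held the largest changes in both directions, and both were in muscle-type isoforms. Of 14 tested members 1 was higher and 2 were lower (21.4%, against 37.1% of all entries), and the median was -0.17 (-0.06 with median ratios).

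Cox6a2, the isoform of subunit 6a that predominates in heart and skeletal muscle, rose. It was at 5.57, 3.77 and 4.09 TPM in wild-type and reached 20.002 and 41.3 TPM in Pax5-/- cells. Both Pax5-/- values lay above every wild-type value but also lay far from each other, and the log2 change was 2.57 ± 0.32 (adjusted p = 0.00087), or 5.95-fold. It stayed past the threshold in all 14 alternative settings, with log2 changes of 2.06 to 3.09, the lower value without Pax5-/- replicate 2 and the higher without replicate 1.

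The ubiquitous isoform Cox6a1 stayed far above it. Cox6a1 was at 1968, 1730 and 1447 TPM in wild-type and at 1534 and 1499 TPM in Pax5-/- cells, with a log2 change of -0.17 ± 0.14 that did not pass. Cox6a2 therefore made up 0.217% to 0.282% of the summed Cox6a1 and Cox6a2 TPM in wild-type and 1.29% and 2.68% in Pax5-/- cells.

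Cox6a2 lies on mouse chr7:135348950-135349880 (mm9), and 66 of its 931 bases overlap the end of Itgad. The entry carries the overlap mark of the annotation, and the strand used in counting is not given in the sources used here. Itgad was at 0.0958, 0.470 and 0.494 TPM in wild-type and at 0.486 and 0.476 TPM in Pax5-/- cells, too low to be tested, and the part of the overlap in the value of Cox6a2 was not tested. A list of 8 markers of plasmacytoid dendritic cells was made after the values of Cox6a2 were seen. Among them Siglech was at 0.106 to 1.12 TPM in wild-type and at 1.79 and 9.06 TPM in Pax5-/- cells. Pacsin1 was at 1.38 to 2.66 against 7.41 and 8.86 TPM. Ccr9, Klk1 and Klra17 stayed below 1 TPM in every library, Klk1 at 0 in both Pax5-/- libraries, while Bst2 did not pass and Tcf4 and Irf8 fell. The 8 markers summed to 395 to 456 TPM in wild-type and 222 and 313 TPM in Pax5-/- cells, and their part in the value of Cox6a2 was not tested.

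Cox7a1, the muscle-type isoform of subunit 7a, moved the other way. It was at 30.4, 37.7 and 31.8 TPM in wild-type and at 14.2 and 19.7 TPM in Pax5-/- cells, so even the higher Pax5-/- value was clearly below the lowest wild-type one. The log2 change was -0.97 ± 0.18 (adjusted p = 0.0053), a 1.95-fold decrease, and it became -0.74 with an adjusted p of 0.0723 without Pax5-/- replicate 1. The gene lies at chr7:30969190-30971047 (mm9). Its liver-type and ubiquitous counterpart Cox7a2 fell as well, from 418, 355 and 439 TPM to 274 and 284 TPM (log2 change -0.53 ± 0.11, adjusted p = 0.0103). Cox7a1 made up 6.75% to 9.60% of the 2 isoforms in wild-type and 4.92% and 6.48% in Pax5-/- cells. Cox7a2l, a factor of supercomplex assembly, was at 308 to 319 TPM against 335 and 388 TPM, without overlap but without passing (log2 change 0.20 ± 0.10).

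The remaining isoform families of complex IV kept their main form. Cox4i1 was at 1656, 1500 and 1484 TPM in wild-type and at 1517 and 1678 TPM in Pax5-/- cells, while Cox4i2, an isoform of lung that responds to low oxygen, was at 0.673 to 1.04 TPM in wild-type and listed at 0 in both Pax5-/- libraries. Cox6b1 was at 1107 to 1225 TPM against 995 and 1076 TPM, and the testis isoform Cox6b2 at 27.7, 32.3 and 46.4 against 40.0 and 40.6 TPM, which is 2.21% to 3.84% and 3.63% and 3.86% of the 2 isoforms. Cox8a was at 1110 to 1283 against 1019 and 1083 TPM. Cox7b2, Cox8b and Cox8c, forms of testis or muscle, were listed at 0 in every library but one, where Cox8b was at 0.337 TPM. Cox6c and Cox7b, which have no such second form at a measurable level here, had log2 changes of -0.37 ± 0.13 and -0.18 ± 0.14 that did not pass.

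**Figure D2:**
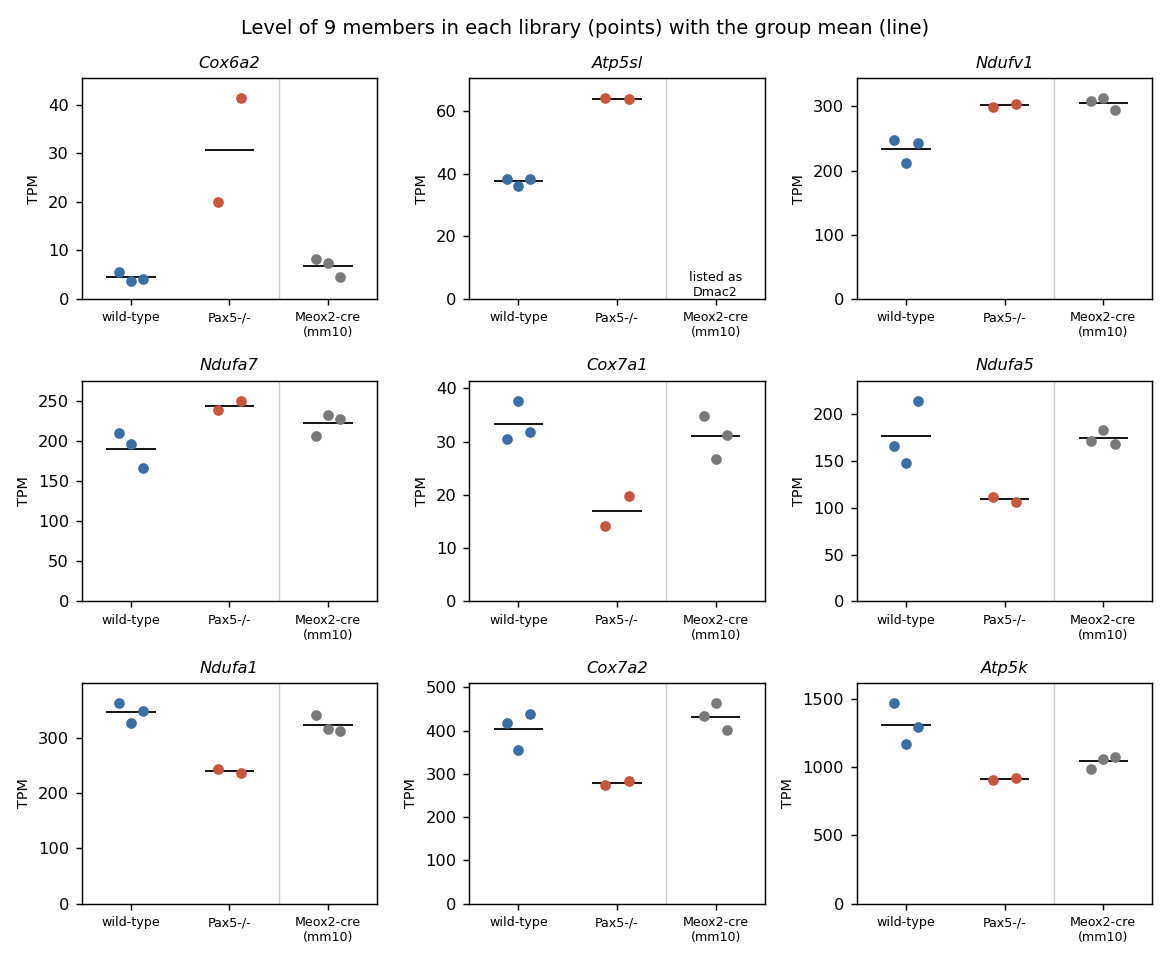
TPM of 9 members past the threshold in each library, with points for libraries and lines for group means, for 3 wild-type and 2 Pax5-/- libraries (mm9 tables) and, right of the grey line, 3 Meox2-cre libraries (mm10 tables), except that Atp5sl has no points there because those tables list it as Dmac2. In all 9 panels the Pax5-/- points do not overlap the wild-type points, which goes with choosing members that passed on these same libraries. For Cox6a2 the Pax5-/- libraries lie apart from each other at 20.002 and 41.3 TPM.

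Complex V, the ATP synthase, had 3 lower members and 1 higher of 17 tested (23.5%, against 37.1% of all entries). The median was -0.09 (0.02 with median ratios). The 1 higher member was Atp5sl, which is a complex I assembly factor. The catalytic head did not pass the test. Atp5b, the catalytic beta subunit, was at 1696, 1437 and 1749 TPM in wild-type and at 1523 and 1458 TPM in Pax5-/- cells, and had the highest level of the complex. Atp5a1, the alpha subunit, was at 1341, 1143 and 1353 against 1230 and 1228 TPM, and Atp5c1, the rotating gamma subunit, at 297, 262 and 278 against 272 and 290 TPM. Their log2 changes were -0.12 ± 0.12, -0.05 ± 0.11 and 0.01 ± 0.10.

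The 3 members that fell, Atp5h, Atp5k and Atp5j, lie in the stalk or membrane part. Atp5h, the d subunit of the peripheral stalk, was at 552, 515 and 535 TPM in wild-type and at 397 and 413 TPM in Pax5-/- cells (log2 change -0.40 ± 0.09, adjusted p = 0.0119). Atp5k, the e subunit at the dimer interface, was at 1465, 1167 and 1295 against 906 and 920 TPM (-0.51 ± 0.12, adjusted p = 0.0133). Atp5j, coupling factor 6 of the stalk, had a log2 change of -0.33 ± 0.09 (adjusted p = 0.0314). None of the 3 passed with median ratios, where the adjusted p were 0.142, 0.131 and 0.249. The level of Atp5h is also uncertain, since much of its sequence has exact copies elsewhere in the genome, as described below.

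Atp5sl was the member of the family with the second smallest adjusted p. It was at 38.4, 36.0 and 38.2 TPM in wild-type and at 64.1 and 63.9 TPM in Pax5-/- cells, with replicates that hardly differed within a genotype. The log2 change was 0.76 ± 0.11 (adjusted p = 0.0016), and it passed in all 14 alternative settings. In the mm10 tables this gene bears its later symbol Dmac2 and was at 42.4, 48.6 and 46.7 TPM in the Meox2-cre libraries.

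The 3 genes that encode the same c subunit of the membrane ring differ in the import sequence that is cut off and not in the mature protein. Atp5g3 was at 1176, 999 and 1011 TPM in wild-type and 1004 and 984 TPM in Pax5-/- cells, Atp5g1 at 79.5 to 111 against 86.9 and 86.2 TPM, and Atp5g2 at 812, 616 and 649 against 830 and 871 TPM. None passed the test, although the Atp5g2 values did not overlap (log2 change 0.31 ± 0.13, adjusted p = 0.111, and past the threshold with quantile normalization). By these values Atp5g2 made up 36.4% to 38.9% of the 3 in wild-type and 43.2% and 44.9% in Pax5-/- cells. In the Meox2-cre libraries, mapped to the later build, its share was only 0.33% to 0.47%. All windows of the Atp5g2 transcript have an exact copy elsewhere in the genome, as described next. Its level and the shares of the 3 genes are therefore uncertain, and a change of share between genotypes was not tested.

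The level of each member was also set beside how uniquely its sequence can be placed in the genome. Every 50-base window of each member's transcript, the read length of the mm9 libraries, was searched for an exact second copy in mm9. Of the 84 members 41 had none, but 17 (20.2%) had copies of more than 20% of their windows and 8 (9.52%) of more than 50%. Among tested entries the share above 20% was 20.5% for members and 7.59% for all others. Atp5g2 was at 100%, Atp5l at 89.4%, Ndufs5 at 80.0%, Cox7c at 71.5%, Atp5h at 67.9%, Cox5b at 62.7%, Uqcrb at 61.5% and Cox7a2l at 54.3%.

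Ndufs5, an intermembrane-space subunit that every complex I holds, was listed at 0, 0 and 0.481 TPM in wild-type and at 0 and 0.161 TPM in Pax5-/- cells, and at a mean of 0.151 TPM in Meox2-cre cells. Atp5l, the g subunit of the synthase, was at 29.4 to 53.0 TPM and Cox7c at 24.6 to 42.9 TPM over the 5 libraries, where the median member of their complexes was at 534 and 268 TPM in wild-type. Cox5b, Atp5h and Cox7a2l had a similar share of repeated windows but levels of 693 to 799, 515 to 552 and 308 to 319 TPM in wild-type. The levels of such members are uncertain in both builds, and the part of discarded multiply placed reads was not tested. The 62 tested members with at most 20% of repeated windows had a median log2 change of -0.12, with 4 higher and 13 lower.

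**Figure D3:**
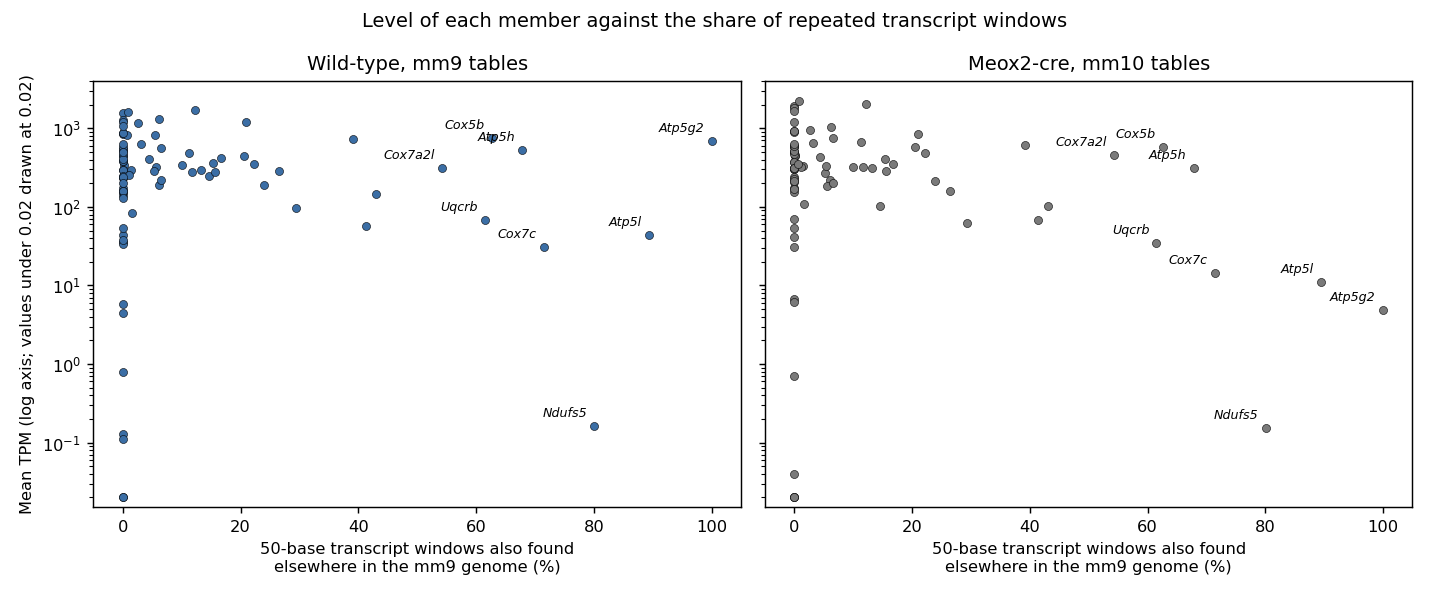
Mean TPM of each member (log axis) against the share of its 50-base transcript windows with an exact copy elsewhere in mm9, for wild-type (left, mm9 tables) and Meox2-cre (right, mm10 tables). Ndufs5 sits below 1 TPM in both panels, and Atp5g2, with all windows repeated, is at 692 TPM on the left and at 4.82 TPM on the right.

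The Meox2-cre libraries gave levels from a separate pipeline and build, so they are set beside wild-type as a description with no test. By the same rule they held 85 entries, with Atp5mpl (183 to 208 TPM) and Ndufb4c (0 in all 3) in addition and Atp5sl under its later symbol. Atp5mpl bears the earlier name 2010107E04Rik in the mm9 tables, which the rule does not match. There it was at 499, 450 and 484 TPM in wild-type and at 400 and 411 TPM in Pax5-/- cells. The 83 members with the same symbol in both builds summed to 35769, 37481 and 35295 TPM, against 33188 to 37612 TPM for all 84 in wild-type. Of 75 members above 20 TPM in either group, 60 had mean levels within 1.5-fold of each other, 3 were at least 1.5-fold higher in Meox2-cre cells and 12 at least 1.5-fold lower, and the rank correlation across these genes was 0.876, which describes genes that share libraries.

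Atp5g2 differed most, at 692 ± 105 TPM (SD, n = 3) in wild-type and 4.82 ± 1.07 TPM (SD, n = 3) in Meox2-cre cells. Atp5l was 3.91-fold and Cox7c 2.11-fold lower in the mm10 tables, and these have repeated windows. Ndufb8 (575 ± 68.4 against 228 ± 11.1 TPM) and Uqcrq (818 ± 77.6 against 354 ± 29.7 TPM) had almost none, yet were 2.52-fold and 2.31-fold lower. Ndufb5 and Uqcrfs1 were among the 3 higher ones, at 1.53-fold and 1.54-fold. Build, annotation, aligner and sample cannot be told apart in these values. Of the isoforms, Cox6a2 was at 6.69 ± 1.87 TPM and Cox7a1 at 31.0 ± 4.01 TPM in Meox2-cre cells, near the wild-type means of 4.48 and 33.3 TPM.

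**Figure D4:**
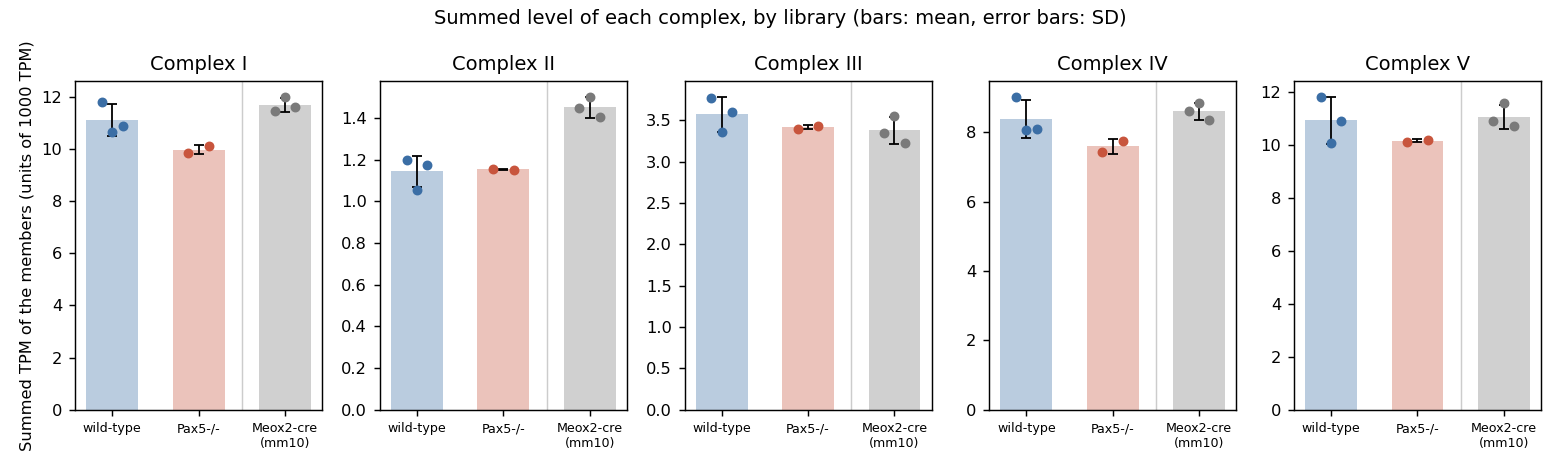
Summed TPM of the members of each complex, with points for libraries, bars for means and error bars for the SD, in 3 wild-type, 2 Pax5-/- and, from the mm10 tables, 3 Meox2-cre libraries. For complexes I and IV both Pax5-/- points lie below all wild-type points, and for complex II they lie within them. The sums are not rescaled between libraries.

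By summed level, complex I came to 11784, 10649 and 10873 TPM in wild-type and to 9842 and 10104 TPM in Pax5-/- cells, a ratio of 0.898, and complex IV to 9031, 8070 and 8088 against 7448 and 7750 TPM, a ratio of 0.905. In both the groups did not overlap, but these sums are not rescaled, and the median log2 change of all entries tested was itself -0.12. Complex II summed to 1057 to 1199 against 1156 and 1153 TPM, complex III to 3355 to 3776 against 3400 and 3437 TPM, and complex V to 10057 to 11822 against 10121 and 10200 TPM, all with Pax5-/- values inside the wild-type range. A sum of TPM follows its few most abundant members.

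The changes were also set against transcript length. The 36 tested members of at most 800 bases had a median log2 change of -0.22, with 2 higher and 9 lower (30.6% called). The 462 other entries of that length had a median of 0.01, with 93 higher and 84 lower (38.3% called). The 28 members of over 800 and up to 1600 bases had a median of -0.09 and the 14 longer ones of -0.00, against -0.01 and -0.14 for other entries of those lengths. The difference between lengths was not tested.

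Genes around the chain were taken from lists of the pathway. Of 46 assembly factors 44 were tested, and 5 fell and 1 rose (13.6% changed, against the 37.1% of all entries). The balance turned with the scaling, since 7 rose and 4 fell with median ratios and 5 rose and 5 fell with quantile normalization. Ndufaf3, a complex I assembly factor, fell from 90.7, 79.1 and 83.7 TPM to 48.7 and 53.3 TPM (log2 change -0.72 ± 0.11, adjusted p = 0.0024), and Cox17, a copper chaperone of complex IV, from 364, 338 and 322 to 239 and 237 TPM (-0.52 ± 0.09, adjusted p = 0.0051, and 0.0600 with median ratios). Uqcc2, an assembly factor of complex III, rose from 387, 363 and 334 to 468 and 446 TPM (0.34 ± 0.10, adjusted p = 0.0331). The other 3 that fell, named after their values were seen, were Sdhaf2, Atpaf2 and Timmdc1.

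A list of 12 partners that the rule does not take in held cytochrome c and the adenine nucleotide carriers. It also held the subunit genes Cyc1, Ndufab1 and Usmg5. Of the 12, 2 rose and 0 fell at the adjusted threshold of limma (16.7% changed, against 37.1% of all entries), and 4 rose and 0 fell with quantile normalization. Dhodh, which feeds electrons from pyrimidine synthesis into the quinone pool, rose from 29.005, 25.4 and 27.1 TPM to 44.9 and 42.6 TPM (0.68 ± 0.12, adjusted p = 0.0047). Slc25a4, an ADP/ATP carrier, rose from 393, 312 and 354 to 459 and 477 TPM (0.41 ± 0.12, adjusted p = 0.0280).

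Of 16 genes of the tricarboxylic acid cycle and pyruvate dehydrogenase 2 rose and 1 fell (18.8% changed, against 37.1% of all entries), and 3 or 4 rose and 1 fell with median ratios or quantile normalization. The rising ones were Suclg1 and Suclg2, subunits of succinyl-CoA ligase, the step before succinate dehydrogenase. Suclg1 went from 166, 151 and 162 TPM to 207 and 213 TPM (0.40 ± 0.09, adjusted p = 0.0140) and Suclg2 from 24.3, 19.998 and 27.1 to 36.4 and 36.0 TPM (0.60 ± 0.16, adjusted p = 0.0204). Ogdh, the oxoglutarate dehydrogenase one step earlier, fell from 140, 132 and 142 to 90.8 and 86.5 TPM (-0.64 ± 0.10, adjusted p = 0.0021).

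Of 18 regulators of mitochondrial transcription and biogenesis 3 fell and 1 rose (22.2% changed, against 37.1% of all entries). This balance turned too, since 3 fell and 4 rose with either of the other scalings. Polg, the mitochondrial DNA polymerase, fell from 53.1, 57.2 and 60.5 TPM to 31.4 and 29.1 TPM (-0.90 ± 0.12, adjusted p = 0.0011), and Twnk, the helicase of the same replisome, rose from 20.4, 19.4 and 25.2 to 35.5 and 27.6 TPM (0.53 ± 0.18, adjusted p = 0.0482). Nrf1 fell from 51.1, 47.8 and 54.8 to 33.8 and 29.8 TPM (-0.68 ± 0.12, adjusted p = 0.0048), and Gabpa, named after its value was seen, from 41.7, 41.6 and 47.96 to 32.1 and 27.5 TPM (-0.55 ± 0.13, adjusted p = 0.0157). All 4 calls held with median ratios and with quantile normalization. The median log2 changes of the 4 lists were -0.04, -0.03, -0.06 and 0.02 in the order given, against -0.12 for all entries, and 0.07, 0.08, 0.06 and 0.13 with median ratios, against -0.00.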

How the data were processed

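Bulk mRNA of sorted pro-B cells was measured in 8 of the 29 samples of the series, and the other samples were not analysed here. The deposited values are TPM per gene entry, made by the authors, from 50-base reads for the mm9 tables. For wild-type and Pax5-/- libraries the study mapped reads to mm9 with TopHat (1.4.1a) after removing ribosomal RNA reads and counted them with featureCounts (1.5.0) on a modified RefSeq annotation, and for Meox2-cre libraries it used STAR (2.4.2a) and mm10. Read depth cannot be recovered from TPM, and reads with several placements are not counted by featureCounts by default.

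The study tested counts with DESeq2, which TPM do not permit. Here log2(TPM + 0.5) of entries averaging over 1 TPM in either genotype was tested with limma (3.58.1, R 4.3.3, intensity trend), comparing 3 wild-type with 2 Pax5-/- libraries, with Benjamini-Hochberg adjustment over 12066 entries, and fold changes on this scale understate low genes. Calls were an adjusted p below 0.05, or in addition a change over 3-fold and an average over 5 TPM in either genotype, with immunoglobulin and T cell receptor entries never called. The script was tested on simulated data. An exact permutation test of single values was not used, since 3 against 2 libraries cannot reach 0.05.

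Named members were the catalytic core subunits, the isoform families, the 2 members of each complex with the smallest adjusted p in each direction, the member with the highest mean in each complex and all members past the thresholds of the study, and 2 per direction of each pathway list. The members and lists were chosen with earlier results of these data known. Mm9 coordinates and transcripts are from GENCODE vM1, and for genes that are no members at most 100 windows of 50 bases were searched. Alternatives were 2 other pseudocounts, filters, variance models, scalings, thresholds and leaving out each library, and 2 were added after seeing the data (without members of over 20% repeated windows, and without members marked as overlapping). The values of 2 genes are not reported here.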

Additional observations from a re-analysis of the deposited data

How the results depend on the processing

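No paired analysis was possible because the replicate numbers of the libraries follow the order of the samples and tie no wild-type to a Pax5-/- library. Members higher and lower at an adjusted p below 0.05 numbered 4 and 15, and 2 and 7 without the intensity trend, 2 and 5 with no filter, 9 and 9 with quantile normalization, 3 and 3 with median ratios, and 2 and 2 at an adjusted p below 0.01. Leaving out 1 library gave 2 to 7 higher (7 without wild-type replicate 1, 2 without wild-type replicate 2 or either Pax5-/- replicate) and 1 to 18 lower (1 without either Pax5-/- replicate, 18 without wild-type replicate 2). Where 1 Pax5-/- library remained, it was assumed to vary like the wild-type ones. With median ratios the median log2 change was -0.0070 for all members, -0.077 for complex I, 0.11 for complex II, -0.053 for complex III, -0.058 for complex IV and 0.024 for complex V, and with quantile normalization it was -0.093 for complex I and -0.089 for complex III. These are scalings of the whole library, and the cause of the shift between genotypes was not tested. The members' place against all entries followed single libraries, at -0.09 against -0.17 without wild-type replicate 1 and -0.12 against -0.06 without wild-type replicate 3. Of the 19 called members, Cox6a2 and Atp5sl passed in all 14 settings and no call turned its direction. Of 29 named members that were not called, 10 changed sign in at least 1 setting. The other pseudocounts, the mean above 5 TPM, the robust fit and removal of receptor entries left all 19 calls, and the count past the thresholds of the study was 1 higher and 0 lower in each alternative run. Unknown read depth and repeated sequence limit the levels of Atp5g2, Atp5l, Ndufs5, Cox7c, Atp5h, Cox5b, Uqcrb and Cox7a2l.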
